A study of Mus musculus with 32 samples.

Results

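The 35 genes described here mark blood vessels, lymphatic vessels and the mural cells that wrap them, and they were taken by their symbols from the 50600 genes of a count table and a TPM table of 32 mouse melanomas. TPM, a unit of transcript abundance, corrects a level for the length of the gene and the size of the library and allows genes to be compared. All 35 identifiers were found, all 35 passed the filter on low counts among 17717 genes tested, and 30 of them had at least 1 count in every tumour. They fall into 12 genes of endothelial junctions and surface, 4 receptors and ligands of the VEGF family, 4 angiopoietins and Tie receptors, 2 genes of the apelin pair, 5 transcription factors, 4 lymphatic genes and 4 mural genes.

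The tumours were primary melanomas from mice that all carried an NRAS Q61K transgene driven by the tyrosinase (Tyr) promoter, 1 lost copy of Cdkn2a and 2 floxed copies of Cdh1, which encodes E-cadherin, an adhesion protein. Ecad tumours kept Cdh1. In ΔEcad tumours the study's methods name a Tyr::CreA transgene that deletes Cdh1 in melanocytes, while the sample labels of that genotype write Tyr::NRAS in the same place, and the genotype was taken from the group name. Each genotype was represented by 8 males and 8 females, which gave the groups Ecad male, Ecad female, ΔEcad male and ΔEcad female. The labels give no age and do not say whether tumours of a group came from separate mice, so the p-values measure the spread between these tumours. Because the Cre acts in melanocytes, the vessels, lymphatics and mural cells of ΔEcad tumours were not the cells targeted.

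Blood vessels are lined by endothelial cells that are held together by VE-cadherin (Cdh5), claudin-5 (Cldn5), PECAM-1 (Pecam1) and ESAM, and that respond to VEGF through the receptors encoded by Kdr, Flt1 and Flt4. Angiopoietin-1 (Angpt1), made mainly by mesenchymal and mural cells, activates the endothelial receptor Tie2 (Tek) and stabilises vessels, whereas angiopoietin-2 (Angpt2) is released by endothelial cells and can counter it. Lymphatic vessels depend on the transcription factor Prox1 and on signalling from Vegfc to Flt4, and pericytes and smooth muscle cells, the mural cells, carry Rgs5, Kcnj8, Abcc9 and Acta2.

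Promoter windows are shown for 5 genes on which the results turn, Robo4, Tie1 and Kdr because they were among the 5 that followed Cdh5 most closely across tumours, Tek because it was called between the female genotypes without 1 tumour described below, and Eng because it was kept in part in a tumour that had almost no Cdh5. RefSeq windows (GRCm38.p6, 250 bases before to 50 bases after a gene start) were at hand for 21 of the 35 genes, in 26 windows of 300 bases, and Cdh5 was not among them. Capitals mark AGGAAG, the core bound by ETS factors such as Erg and Fli1, read on either strand (CTTCCT on the other), and in the Tek window AGATAA, a core of GATA factors. The windows lie at chr9:37401722-37402021 (plus strand), chr4:118489800-118490099 (minus strand), chr5:75978406-75978705 (minus strand), chr4:94739039-94739338 (plus strand) and chr2:32646345-32646644 (plus strand), and each is written 5′ to 3′ on the strand of its gene.
Robo4: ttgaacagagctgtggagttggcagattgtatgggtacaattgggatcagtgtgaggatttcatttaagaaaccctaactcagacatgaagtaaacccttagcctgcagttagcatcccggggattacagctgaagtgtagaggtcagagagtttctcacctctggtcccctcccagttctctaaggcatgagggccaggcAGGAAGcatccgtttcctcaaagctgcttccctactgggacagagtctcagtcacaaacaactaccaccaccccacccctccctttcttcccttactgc
Tie1: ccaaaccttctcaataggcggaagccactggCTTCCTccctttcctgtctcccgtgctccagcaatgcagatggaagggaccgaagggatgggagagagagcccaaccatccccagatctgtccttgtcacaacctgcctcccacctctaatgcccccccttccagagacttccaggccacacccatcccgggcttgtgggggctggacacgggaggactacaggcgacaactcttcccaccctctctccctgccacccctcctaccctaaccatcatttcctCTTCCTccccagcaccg
Kdr: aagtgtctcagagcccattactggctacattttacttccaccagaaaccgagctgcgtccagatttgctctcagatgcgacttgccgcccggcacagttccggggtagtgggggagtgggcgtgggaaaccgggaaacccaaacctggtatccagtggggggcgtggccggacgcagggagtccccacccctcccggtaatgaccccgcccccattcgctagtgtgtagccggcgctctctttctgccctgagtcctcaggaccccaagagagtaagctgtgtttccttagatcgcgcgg
Tek: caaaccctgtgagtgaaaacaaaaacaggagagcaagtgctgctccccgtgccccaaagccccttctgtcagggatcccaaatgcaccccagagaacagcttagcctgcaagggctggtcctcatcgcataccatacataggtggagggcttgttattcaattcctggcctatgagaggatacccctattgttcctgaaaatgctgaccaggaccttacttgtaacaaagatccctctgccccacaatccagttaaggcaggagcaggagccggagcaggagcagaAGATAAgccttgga
Eng: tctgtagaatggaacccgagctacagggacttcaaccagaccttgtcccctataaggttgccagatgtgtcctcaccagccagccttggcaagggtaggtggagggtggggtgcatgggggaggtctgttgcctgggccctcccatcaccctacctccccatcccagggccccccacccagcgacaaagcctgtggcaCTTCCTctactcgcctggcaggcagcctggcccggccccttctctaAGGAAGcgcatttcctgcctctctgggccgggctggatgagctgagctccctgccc
AGGAAG began 49 bases before the start in the Robo4 window, and 52 and 6 bases before it in the Eng window. In the Tie1 window it began 219 bases before the start and once more after it, AGATAA lay after the start in the Tek window, and the Kdr window held none of the motifs. Over all the windows of these genes 10 of 26 held AGGAAG on at least 1 strand (38.5%), against 35.4% of 32851 windows of all genes. It lay in 6 of the 8 windows of junction and surface genes, in 1 of the 4 of the VEGF group and in none of the 4 lymphatic and 4 mural windows. ACAATG, a core of SOX factors, was in 2 of 26 windows against 12.6% of all, and AGATAA was in 3 against 11.2%. The strict CArG box consensus was in 0 of 26 against 1.63%. These matches describe letters in short windows, and binding was not measured.

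The libraries held 24036333 to 63923086 counts, and the 35 genes took 0.0506% to 0.283% of them. Cdh1, the targeted gene, was at 25 to 282 TPM in Ecad males and 0.79 to 65.2 TPM in ΔEcad males, whereas Ecad females ran from 2.16 to 151 TPM and ΔEcad females from 0.17 to 143 TPM. The genotypes overlapped in both sexes and almost wholly in females, where they rest on the labels. Of the melanocytic markers (Mlana, Pmel, Tyrp1, Tyr, Dct, Slc45a2 and Mitf), the summed level was 31.3 TPM in the library labelled ΔEcad male 7 and at least 5539 TPM in each of the other 31 tumours. In the library labelled ΔEcad male 2, Xist stood at 6.41 TPM and the Y-linked genes Ddx3y, Eif2s3y, Kdm5d and Uty at 0 counts in sum, whereas the other males had at most 0.2 TPM and at least 1459 counts. Both were kept under their labels, and the numbers of genes called are given below with and without them. In the library labelled ΔEcad female 1 the same Y-linked genes held 92 counts in sum, against at most 4 in each of the other females, and Xist was at 101 TPM. That library was also kept under its label.

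Another library stood apart in the vessel genes themselves. The library labelled ΔEcad female 3 held 1 count of Cdh5 among 48232383, and Cdh5 lay at 0.0547% of the median of the other 31 tumours in TPM. In that tumour 23 of the 35 genes were under 5% of the median of the others, 23 were lower than in any other tumour, and Cldn5, Emcn, Robo4, Sox17 and Mmrn1 had 0 counts. A count of 0 allows up to 3 counts, which for these 5 genes is at most 0.339% to 1.82% of the median of the others, for counting error only. Kdr was at 0.134%, Tie1 at 0.0631%, Pecam1 at 0.505%, the lymphatic hyaluronan receptor Lyve1 at 0.386% and the pericyte channel subunit Abcc9 at 0.783%.

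A few of the 35 genes were kept or were higher in ΔEcad female 3. Endoglin (Eng), a TGF-β coreceptor, was at 106 TPM (49.6% of the median of the others), and Vegfc was at 20.5 TPM (73.8%). Podoplanin (Pdpn) was at 151 TPM and apelin (Apln) at 34.2 TPM, the second and the third highest of the 32 tumours. Angpt1 at 6.04 TPM and Acta2, the actin of smooth muscle and myofibroblasts, at 3978 TPM were the highest. Beside these values, the summed TPM in this library was 0 for 5 red blood cell markers, 11.7 for 7 macrophage markers and 9317 for 7 fibroblast markers, against medians over 32 tumours of 1252, 1331 and 1079. A sum follows its most abundant genes. The mean log2 CPM (counts scaled to a common library total) of the 7 fibroblast markers was 7.57 here, against a median of 7.45. The list as a whole was therefore near its usual level. In bulk tissue, fewer cells of a type and less RNA per cell cannot be told apart.

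**Figure D1:**
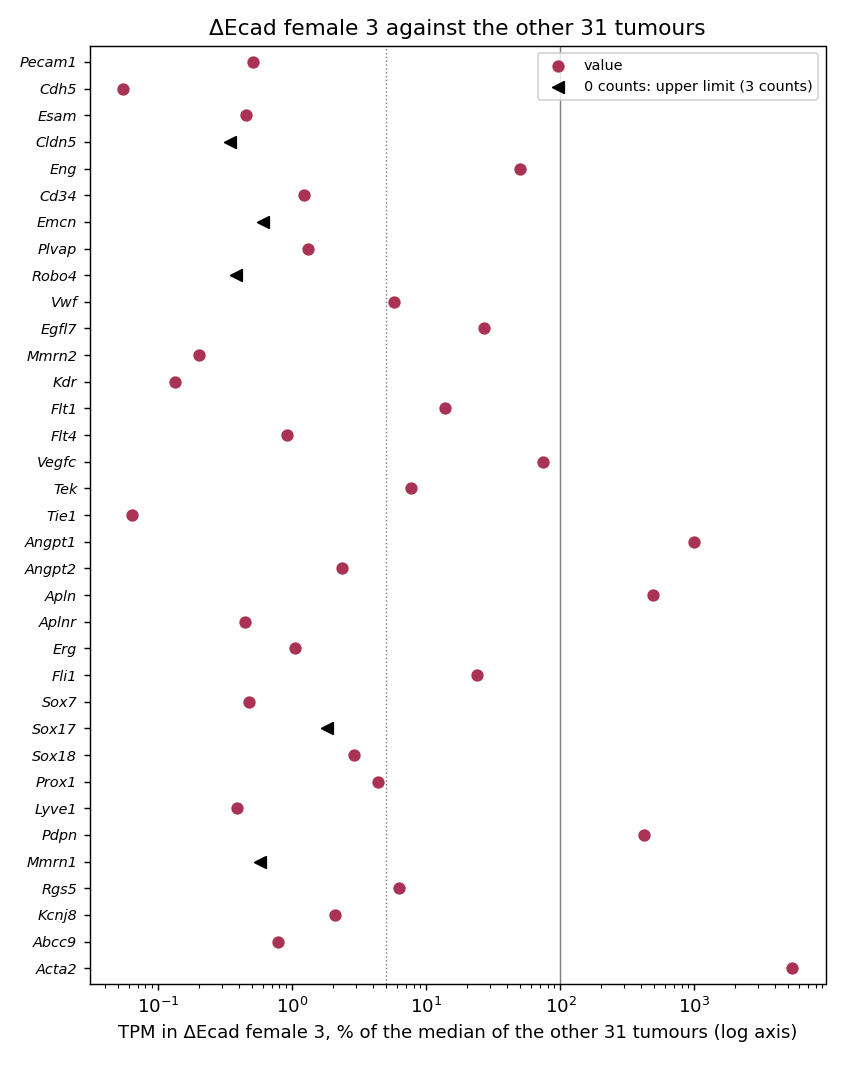
TPM of each of the 35 genes in ΔEcad female 3 as a percent of the median of the other 31 tumours, on a log axis. Points are measured values, triangles are the upper limit that 0 counts allow, the dotted line is at 5% and the solid line at 100%. Most genes lie left of the dotted line, while Angpt1, Apln, Pdpn and Acta2 lie right of the solid line.

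Levels are given below as the median TPM of 8 tumours in the order Ecad male, Ecad female, ΔEcad male and ΔEcad female. The Ecad female median was the lowest of the 4 in 28 of the 35 genes and the highest in 0 of them, and the ΔEcad female median was the highest in 16. Medians over all 32 tumours ran from 0.635 TPM for Angpt1 to 207 TPM for Eng. The order of the group medians was not counted over all genes. By median summed TPM, Ecad females were also lowest for the keratinocyte, fibroblast, macrophage, T cell, skeletal muscle, adipocyte and platelet markers used below. By that measure they were not lowest for smooth muscle, red blood cell, melanocytic and Schwann markers. By the median of the mean log2 CPM of each list, however, they were lowest for smooth muscle markers, at 2.39 against 2.62 in ΔEcad males, the next group. The same was true of Schwann markers, at 3.41 against 4.00 in ΔEcad males.

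**Figure D2:**
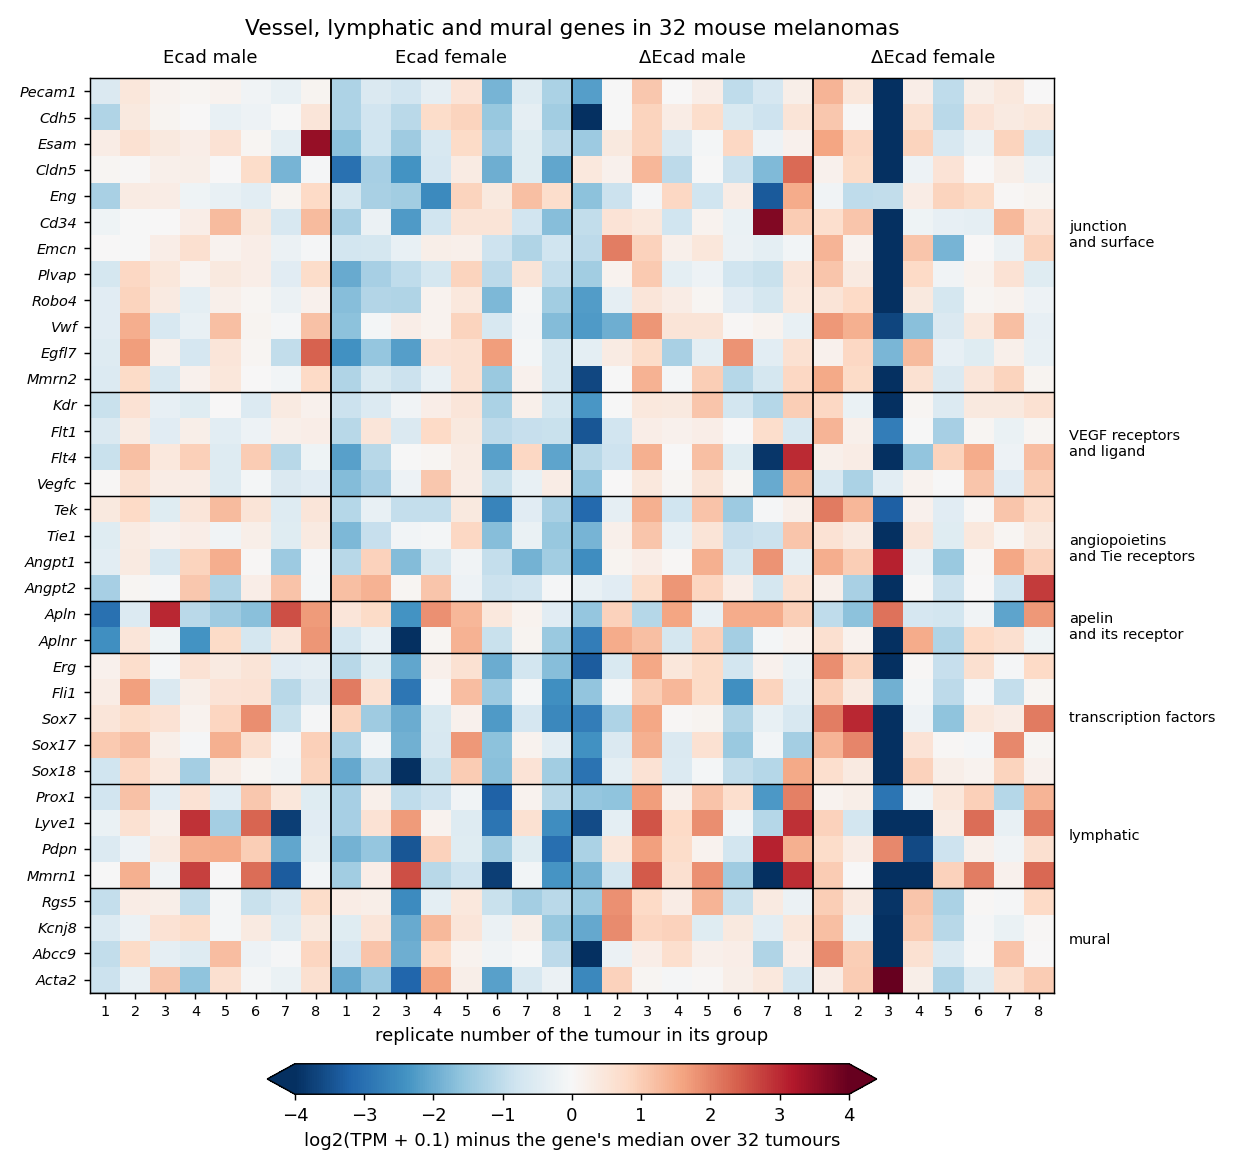
Level of the 35 genes (rows, grouped by role) in each of the 32 tumours (columns, grouped by genotype and sex), as log2(TPM + 0.1) minus the median of the gene over all tumours. Colours saturate at 4 in either direction. The ΔEcad female 3 column is low in most rows, and the Ecad female columns are mostly below the medians.

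Of the junction genes, Pecam1 (ENSMUSG00000020717, chr11:106654217-106750628 in GRCm38) had medians of 31.7, 18.6, 29.6 and 35.1 TPM and Cdh5 (ENSMUSG00000031871, chr8:104101625-104144511) of 36.2, 19.1, 39.8 and 47.7 TPM. Both were lowest in Ecad females, and in both the ranges of the 4 groups overlapped. The junction protein gene Esam was at 27.1, 11.2, 22.1 and 27.9 TPM, with 1 tumour, Ecad male 8, at 238 TPM. Cldn5, the main claudin of endothelial tight junctions, was at 36.7, 11.5, 37.1 and 37.6 TPM. Ecad females were again the lowest group by median in Esam and Cldn5.

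Among the surface genes, Plvap, the protein of the diaphragms of fenestrated endothelium, was at 197, 78.9, 128 and 187 TPM. Emcn, a sialomucin of venous and capillary endothelium, was at 5.55, 3.15, 5.5 and 5.54 TPM, and Robo4, a guidance receptor of endothelium, at 8.88, 3.53, 7.5 and 8.76 TPM. In these genes, too, the median was lowest in Ecad females. Mmrn2, an extracellular matrix protein of vessels, had medians of 10.4, 6.17, 9.45 and 14.4 TPM. The clotting factor carrier Vwf was at 4.94, 4.51, 5.15 and 5.12 TPM, and the secreted factor Egfl7 at 31.5, 22.3, 28.8 and 27.96 TPM. Vwf and Egfl7 differed less between group medians than within groups, where Egfl7 ran from 5.26 to 148 TPM over the 32 tumours. The same held for Pecam1 and Cdh5, which ran from 0.15 to 76.1 TPM and from 0.02 to 77.2 TPM. Eng was at 205, 201, 161 and 218 TPM and Cd34, which is also found on fibroblasts and blood progenitors, at 18.1, 9.51, 19.96 and 19.5 TPM. Exons of Eng, Cd34 and Egfl7, and below those of Angpt1, Sox17, Prox1 and Abcc9, overlap exons of other genes. The kit marked the strand, but the strand setting of the counting is not given in the sources used here, so shared reads make these 7 genes less certain.

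Of the VEGF group, all 4 genes had their lowest median in Ecad females. Kdr, the main receptor of VEGF-A, was at 6.67, 5.79, 8.39 and 8.69 TPM, and Flt1, its decoy-like partner, at 7.26, 4.31, 7.72 and 7.43 TPM. The lymphatic receptor gene Flt4 was at 10.9, 7, 8.49 and 11.7 TPM and its ligand gene Vegfc at 26.8, 22.9, 28.8 and 23.6 TPM. Flt4 ran from 0.09 to 77.3 TPM, with its highest value in ΔEcad male 8. Tek was at 5.25, 1.89, 3.22 and 5.14 TPM and Tie1, its partner receptor, at 17.2, 10.2, 14.6 and 19.2 TPM. Angpt1, at 0.635, 0.26, 0.675 and 1.31 TPM, was the scarcest of the 35 genes, and Angpt2 was at 17.3, 17.4, 23.2 and 13.5 TPM. The Ecad female median of Angpt1 was below that of each other group, whereas Angpt2 did not share that order. Apln, a ligand of sprouting vessels, was at 4.35, 10.4, 14.9 and 4.62 TPM, with a spread from 0.87 to 62.1 TPM, and its receptor gene Aplnr was at 9.7, 6.01, 8.65 and 11.3 TPM.

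Of the transcription factors, Erg, which maintains endothelial identity, was at 4.46, 1.91, 3.63 and 4.8 TPM, and Fli1, which blood cells share, at 4.88, 3.98, 5.38 and 3.87 TPM. The SoxF factors, which act in arterial and lymphatic endothelium, were lowest in median in Ecad females for Sox7 (5.86, 1.97, 2.92 and 5.23 TPM) and Sox18 (34.9, 12.8, 21.8 and 37.1 TPM). Sox17 was instead lowest in ΔEcad males, at 3.41, 1.3, 1.25 and 2.44 TPM. Among lymphatic genes, Prox1 was at 1.09, 0.5, 1.45 and 1.2 TPM and Lyve1, also carried by some macrophages, at 16.1, 14.8, 21.6 and 16.8 TPM. Mmrn1 was at 5.08, 2.57, 5.47 and 7.68 TPM and Pdpn, also made by fibroblasts and keratinocytes, at 42.1, 13.9, 60.2 and 47.04 TPM. Lyve1 and Mmrn1 spread widely within every group, and Lyve1 ran from 0.07 to 125 TPM. The mural genes were at 27.9, 22.9, 44.4 and 40.6 TPM for Rgs5, a pericyte regulator of G-protein signalling, and at 5.84, 5.24, 6.97 and 4.71 TPM for Kcnj8, a potassium channel of pericytes. Abcc9, the partner of Kcnj8 in that channel, was at 3.44, 3.58, 4.47 and 4.82 TPM and Acta2 at 67.9, 38.6, 79.5 and 105 TPM. Ecad females were lowest by median in Rgs5 and Acta2 but not in Kcnj8 and Abcc9.

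Loss of E-cadherin was first compared in females, ΔEcad against Ecad, to ask whether the vessel genes change with genotype. Of the 35 genes, 1 was called, Acta2, which was higher in ΔEcad, and the call was lost without ΔEcad female 3. The log2 fold change was above 0 in 31 of the 35, against 48.4% of all genes, with a median of 0.65 against -0.02 over all 17717 genes. Many of the 35 vary together across tumours, as described below, so such a count is not one of independent genes. Tek and its ligand gene Angpt1, the factors Sox7 and Erg, and Pdpn were each higher at an unadjusted p under 0.05, in addition to Acta2. Called means an adjusted p under 0.05 in edgeR's quasi-likelihood test, with Benjamini-Hochberg adjustment over all genes, and a log2 fold change above 1 in size. Of all genes, 1.2% were called (1.16% higher and 0.0452% lower), and 11.2% were higher at an unadjusted p under 0.05 against 6 of 35 here. None of the 35 was lower at that p, against 4.13% of all genes.

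Acta2 had a lowest, median and highest value of 8.46, 38.6 and 231 TPM in Ecad females and of 32.2, 105 and 3978 TPM in ΔEcad females. The 2 groups overlapped, and 1 ΔEcad tumour lay above every Ecad tumour. The means were 63.4 ± 73.1 and 584 ± 1372 TPM (n = 8 each, ± SD), a log2 fold change of 3.06 (± 0.80 SE, adjusted p 0.0497 in edgeR). Without ΔEcad female 3 the ΔEcad mean was 99.4 ± 46.8 TPM (SD, n = 7) and the log2 fold change was 0.68 (± 0.50 SE, adjusted p 0.542), which was no longer called. DESeq2 gave 0.69 (± 0.48 SE, adjusted p 0.505) with all 32 tumours entered. It was run with default settings, which can replace outlying counts in groups of this size. Whether the Acta2 count of ΔEcad female 3 was replaced was not checked, so this value is not a second estimate on the same counts. The adjusted p lay close to the threshold, and the call was also lost when any 1 of 19 other tumours was left out.

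Angpt1 was at 0.1, 0.26 and 1.3 TPM (lowest, median and highest) in Ecad females and at 0.16, 1.31 and 6.04 TPM in ΔEcad females. The highest value was again ΔEcad female 3, and 4 of the 8 ΔEcad tumours lay above every Ecad tumour. The log2 fold change of 2.14 (± 0.62 SE, adjusted p 0.0639 in edgeR) missed the threshold, and it was 1.61 (± 0.59 SE, adjusted p 0.139) without ΔEcad female 3. DESeq2 called it at 2.20 (± 0.58 SE, adjusted p 0.00517), in a fit that called 3 of the 35 genes and 1182 higher and 99 lower of 17717 genes. Tek, the receptor of Angpt1, was at 0.52, 1.89 and 4.92 TPM in Ecad females and 0.3, 5.14 and 16.2 TPM in ΔEcad females. Here ΔEcad female 3 was the lowest of all tumours, and 4 of the other ΔEcad tumours lay above every Ecad tumour. The log2 fold change of Tek was 1.48 (± 0.53 SE, adjusted p 0.129 in edgeR), and without ΔEcad female 3, where the ΔEcad mean was 7.25 ± 4.64 TPM (SD, n = 7) against 2.26 ± 1.32 TPM in Ecad females (SD, n = 8), it was 1.66 (± 0.46 SE, adjusted p 0.0448) and was called. Sox7 was at 0.59, 1.97 and 7.59 TPM in Ecad females and at 0.02, 5.23 and 33.4 TPM in ΔEcad females. It stood above every Ecad tumour in 3 ΔEcad tumours, ΔEcad females 1, 2 and 8. Its log2 fold change was 1.96 (± 0.69 SE, adjusted p 0.126 in edgeR) over all tumours and 2.15 (± 0.57 SE, adjusted p 0.0388) without ΔEcad female 3, which was called.

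Without ΔEcad female 3, 13 of the 35 genes were higher in ΔEcad females at an unadjusted p under 0.05, against 11.4% of all genes, and 33 of the 35 log2 fold changes were above 0. Those 13 were Sox7, Tek, Erg, Pecam1, Angpt1, Cldn5, Robo4, Mmrn2, Sox17, Esam, Rgs5, Emcn and Plvap, of which Sox7 and Tek were called in a fit that called 471 higher and 12 lower of 17935 genes. With ΔEcad male 2 and ΔEcad male 7 also left out, 2 genes were called and 15 reached that p. Here and below, a count from an alternative fit that is given without the share of all genes describes only the 35 genes. Such a count cannot tell them apart from genes in general. Of the remaining genes of the original 6, Pdpn had a log2 fold change of 1.22 (± 0.59 SE, adjusted p 0.315 in edgeR) and Erg of 1.14 (± 0.56 SE, adjusted p 0.32 in edgeR). The anchors of each compartment did not pass, with 0.54 (± 0.61 SE, adjusted p 0.762 in edgeR) for endothelial Cdh5, 0.96 (± 0.66 SE, adjusted p 0.552 in edgeR) for lymphatic Prox1 and 0.71 (± 0.48 SE, adjusted p 0.532 in edgeR) for Rgs5 of pericytes. For Cdh5 the ΔEcad females were at 0.02, 47.7 and 77.2 TPM and the Ecad females at 12.7, 19.1 and 66.6 TPM, and 6 of 8 ΔEcad tumours lay above the Ecad median.

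Of the markers of other cell types, 1 of 5 smooth muscle markers was called in this comparison and none of the other lists held a called gene. The summed TPM of 8 keratinocyte markers ran from 5.11 to 1910.0 in Ecad females with a median of 7.97, and from 9.48 to 34108 in ΔEcad females with a median of 6461. All 8 had a log2 fold change above 0, 7 of them at an unadjusted p under 0.05. All 6 adipocyte markers were higher at that p. Their summed TPM had medians of 18.1 and 173, ranging from 0.28 to 579.9 and from 4.87 to 5547. Fibroblast markers, with 3 of 7 higher at that p, had medians of 348 and 1263 summed TPM, and 2 of 5 smooth muscle, 2 of 7 skeletal muscle, 3 of 5 platelet and 2 of 5 Schwann markers were higher at that p as well. All 7 melanocytic markers had a log2 fold change below 0, 1 of them at that p, with a median of -1.01, and none of the macrophage, T cell or red blood cell markers reached that p. With the keratinocyte and melanocytic scores as covariates, 2 of the 35 genes, Acta2 and Angpt1, were higher at that p and 0 were called, and the log2 fold change of Tek was 0.75 (± 0.53 SE, adjusted p 0.768) and of Sox7 0.47 (± 0.70 SE, adjusted p 0.925). The keratinocyte score, the mean log2 CPM of its markers, itself differed between the female groups, with medians of -2.60 in Ecad and 7.94 in ΔEcad. This fit therefore cannot tell genotype and cell content apart. The part of these cells in the vessel genes was not tested.

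**Figure D3:**
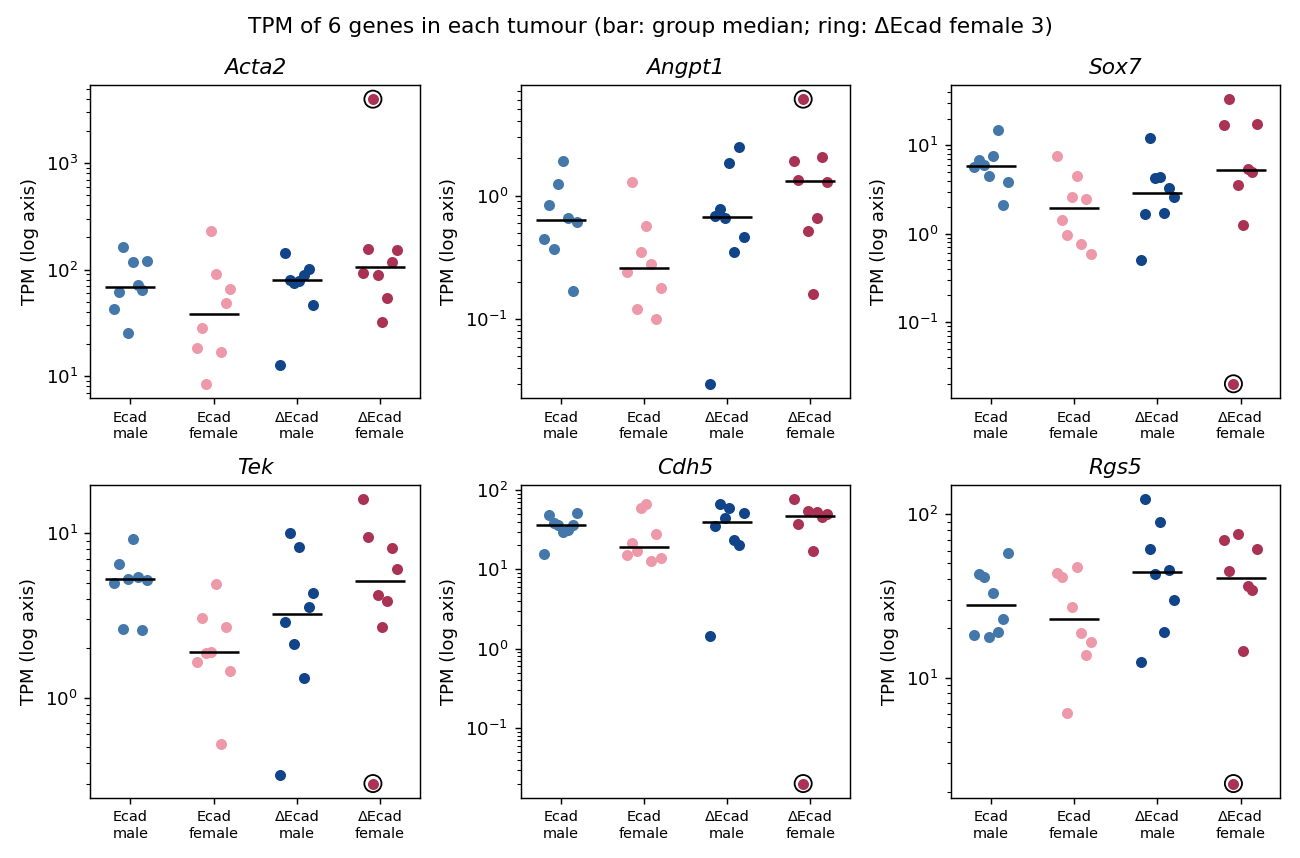
TPM on log axes of Acta2, Angpt1, Sox7, Tek, Cdh5 and Rgs5 in each tumour of the 4 groups, with the group median as a bar and ΔEcad female 3 ringed. That tumour is the highest of all in Acta2 and Angpt1 and the lowest of all in Sox7, Tek, Cdh5 and Rgs5.

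**Figure D4:**
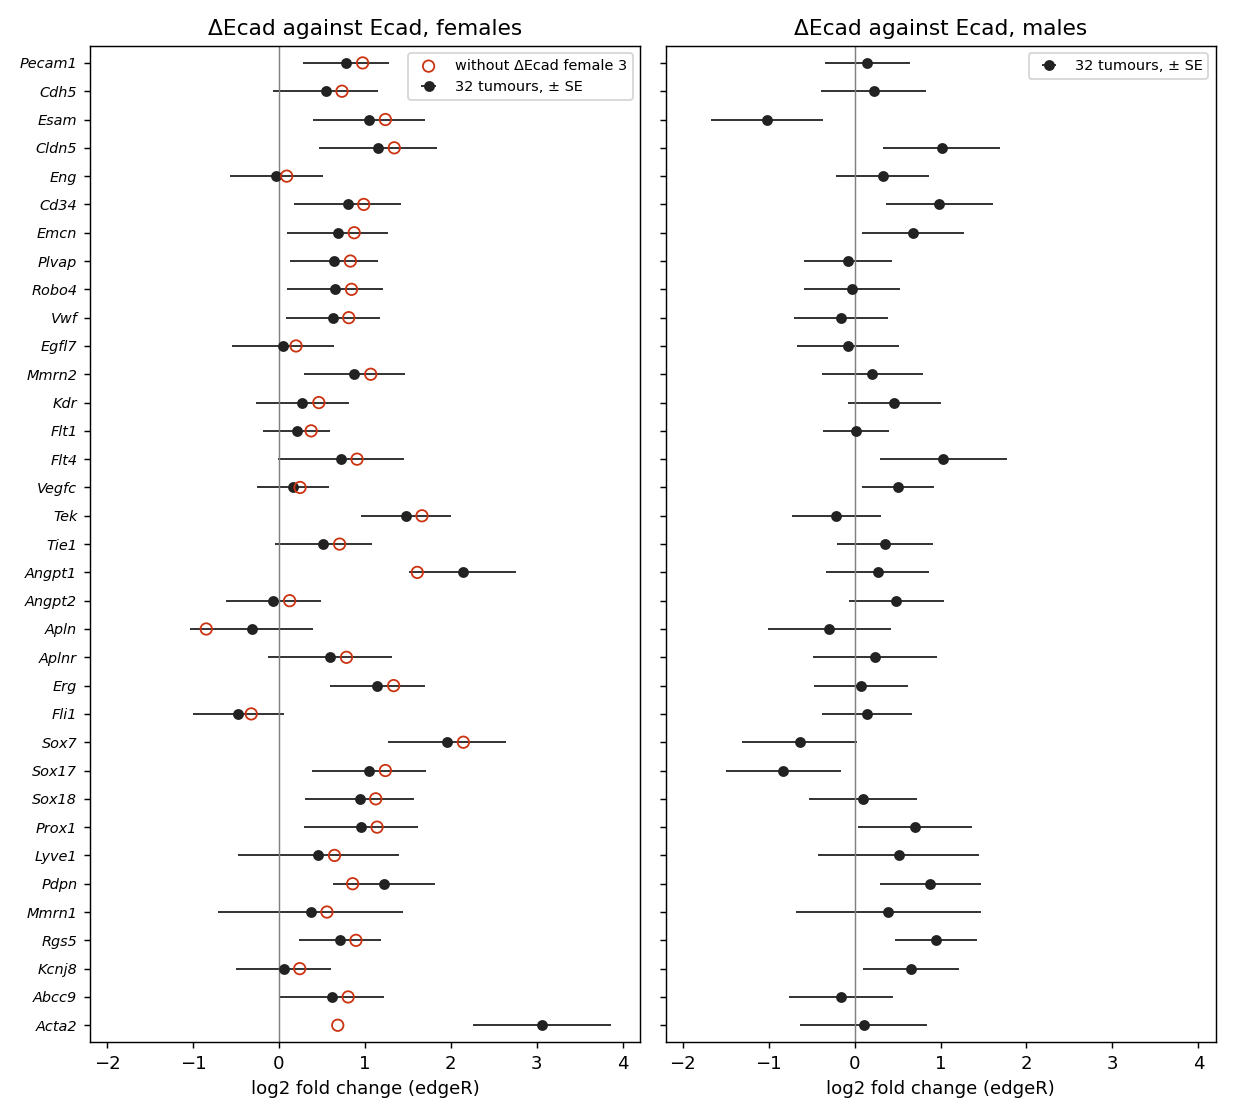
edgeR log2 fold change of the 35 genes between ΔEcad and Ecad tumours in females (left) and males (right), with bars of 1 SE over the fit of 32 tumours (filled) and the value without ΔEcad female 3 in females (open). In females 31 of 35 filled points lie above 0, in males 25 of 35, and Acta2 moves most when that tumour is left out.

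In males, none of the 35 genes was called by edgeR, and 0.0% of all genes were. At an unadjusted p under 0.05, 0 genes were higher and 0 lower, against 7.19% and 3.05% of all genes, DESeq2 called 0, and limma voom called 0 with 1 gene, Rgs5, higher at that p. The median log2 fold change was 0.22 and 25 of 35 were above 0, against a median of 0.11 and 59.1% above 0 over all genes. Rgs5 had the smallest p, with 17.8, 27.9 and 58.3 TPM (lowest, median and highest) in Ecad males, 12.4, 44.4 and 124 TPM in ΔEcad males and a log2 fold change of 0.94 (± 0.48 SE, adjusted p 0.497 in edgeR). The highest value was that of ΔEcad male 2, and 3 of the 8 ΔEcad tumours lay above every Ecad tumour. Cd34 gave 0.98 (± 0.62 SE, adjusted p 0.572 in edgeR), with ΔEcad male 7 at 214 TPM and the other 31 tumours at most at 40.1 TPM, and it was 0.07 (± 0.56 SE, adjusted p 0.972) without that tumour. Esam gave -1.02 (± 0.65 SE, adjusted p 0.574 in edgeR), with Ecad male 8 far above the rest, and 0.18 (± 0.55 SE, adjusted p 0.913) without it. Pdpn was at 0.88 (± 0.59 SE, adjusted p 0.595 in edgeR), Cldn5 at 1.01 (± 0.68 SE, adjusted p 0.598 in edgeR) and Flt4 at 1.03 (± 0.74 SE, adjusted p 0.623 in edgeR). ΔEcad male 8 held the highest Cldn5, 172 TPM, and the highest Flt4, 77.3 TPM, of all tumours, while ΔEcad male 7 held the highest Pdpn. Without ΔEcad male 8, Cldn5 was at 0.34 (± 0.65 SE, adjusted p 0.882), and the log2 fold change of Flt4 was below 0. Cdh5 differed by 0.22 (± 0.61 SE, adjusted p 0.913 in edgeR) between the male groups, and Prox1 by 0.70 (± 0.66 SE, adjusted p 0.71 in edgeR). Without the 3 libraries that stand apart 0 genes were called and 2 were higher at an unadjusted p under 0.05.

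Between the sexes of Ecad tumours, the vessel genes were lower in females in 32 of 35 log2 fold changes, against 8175 of all 17717 genes. The median was -0.61 against 0.05 over all genes. None of the 35 was called by edgeR, against 0.0508% of all genes (0.0113% higher and 0.0395% lower). Esam, Pdpn and Tek were lower at an unadjusted p under 0.05, which is 3 of 35 against 10.3% of all genes, and 0 were higher against 5.71%. Esam was at 6.78, 11.2 and 36.6 TPM (lowest, median and highest) in Ecad females and 16.1, 27.1 and 238 TPM in Ecad males, and 1 of 8 female tumours lay above the male median. Its log2 fold change was -2.02 (± 0.67 SE, adjusted p 0.134 in edgeR), which DESeq2 called at -2.04 (± 0.63 SE, adjusted p 0.0276) in a fit that called 91 higher and 932 lower of 17717 genes. Without Ecad male 8 it was -0.82 (± 0.55 SE, adjusted p 0.466) in edgeR. Pdpn, at 3.59, 13.9 and 75.3 TPM in females and 9.32, 42.1 and 111 TPM in males, differed by -1.35 (± 0.59 SE, adjusted p 0.249 in edgeR). Tek was at 2.58, 5.25 and 9.18 TPM in Ecad males, and none of the 8 Ecad females lay above that median. It differed by -1.16 (± 0.52 SE, adjusted p 0.263 in edgeR). limma voom called 0 of the 35 genes, with 4 lower and 1 higher at an unadjusted p under 0.05, against 18.6% and 10.9% of all genes. Of the keratinocyte markers 0 of 8 were called and 7 were lower in females at an unadjusted p under 0.05 in edgeR, with a median summed TPM of 4518 in males (range 8.64 to 23239.8) against 7.97 in females. With the keratinocyte and melanocytic scores as covariates the median of the 35 log2 fold changes was -0.21 and 1 gene, Esam, was lower at that p. The median keratinocyte score was 8.04 in Ecad males and -2.60 in Ecad females, so that fit cannot tell sex and cell content apart. Without the 3 libraries 0 genes were called and 7 were lower at that p, and 6 were without ΔEcad female 3 alone.

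Between the sexes of ΔEcad tumours the genes showed no common direction, with 15 of 35 above 0, against 45.1% of all genes. The median log2 fold change was -0.17 against -0.06 over all genes. None was called by edgeR or by DESeq2, against 0.0395% of all genes in edgeR (0.00564% higher and 0.0339% lower). Acta2 alone was higher at an unadjusted p under 0.05 in edgeR, against 3.32% of all genes, and 0 genes were lower, against 5.49%. At that p DESeq2 gave 1 gene, and limma voom called 0 and gave 0. Acta2 was at 12.8, 79.5 and 144 TPM (lowest, median and highest) in ΔEcad males and differed by 2.52 (± 0.78 SE, adjusted p 0.484 in edgeR), and by 0.15 (± 0.50 SE, adjusted p 0.954) without ΔEcad female 3. Sox7, at 0.51, 2.92 and 12.04 TPM in ΔEcad males, differed by 1.30 (± 0.68 SE, adjusted p 0.581 in edgeR), and Pdpn, at 16.3, 60.2 and 332 TPM in males and 3.16, 47.04 and 151 TPM in females, by -1.01 (± 0.59 SE, adjusted p 0.628 in edgeR). These ranges overlapped in each gene. Without the 3 libraries 0 genes were called, and the median was 0.12.

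The difference between the female and the male genotype effects was tested as an interaction. None of the 35 genes was called by edgeR, against 0.0% of all genes, and 5 (Acta2, Sox7, Tek, Esam and Angpt1) were above 0 at an unadjusted p under 0.05, against 10.7% of all genes, and 0 were below 0, against 6.94%. The interaction was 2.95 (± 1.07 SE, adjusted p 0.129 in edgeR) for Acta2, 2.60 (± 0.96 SE, adjusted p 0.138 in edgeR) for Sox7 and 1.69 (± 0.73 SE, adjusted p 0.215 in edgeR) for Tek. That of Acta2 was 0.58 (± 0.70 SE, adjusted p 0.669) without ΔEcad female 3. Without ΔEcad female 3, Sox7 was called at 2.79 (± 0.78 SE, adjusted p 0.0439), and DESeq2 with all tumours entered called it at 2.69 (± 0.91 SE, adjusted p 0.0461). The first of these fits called 587 higher and 44 lower of 17935 genes and the second 1096 higher and 129 lower of 17717 genes, so 1 of 35 was no larger a share than that of all genes. With the 3 libraries left out it was not called, at 2.63 (± 0.83 SE, adjusted p 0.0862). Sox7 medians were 5.86, 1.97, 2.92 and 5.23 TPM, so by median ΔEcad was above Ecad in females and below it in males. In limma voom 0 genes were called, with 3 above and 2 below 0 at an unadjusted p under 0.05. Averaged over the sexes, 32 of 35 log2 fold changes were above 0, against 58.7% of all genes, with a median of 0.41 against 0.07 over all genes. None was called, against 0.0113% of all genes, while 5 were higher at an unadjusted p under 0.05 against 7.25% and 0 lower against 2.63%. The smallest p-values were those of Acta2 at 1.58 (± 0.54 SE, adjusted p 0.326 in edgeR), Angpt1 at 1.20 (± 0.43 SE, adjusted p 0.364 in edgeR) and Pdpn at 1.05 (± 0.42 SE, adjusted p 0.43 in edgeR). Acta2 was at 0.39 (± 0.35 SE, adjusted p 0.757) without ΔEcad female 3. DESeq2 and limma voom also called 0 genes in that average, with 5 and 3 higher at an unadjusted p under 0.05. Without ΔEcad female 3, 0 were called in edgeR and 12 were higher at that p, and 11 were without the 3 libraries. The 6 comparisons share tumours, so these counts are not independent of each other.

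Ratios of 2 genes within a tumour depend little on library scaling, and 5 of them were compared between groups on log2 CPM (counts scaled to a common library total) with a prior count of 1. The log2 ratio of Angpt2 to Angpt1 was 3.05 ± 3.25 in ΔEcad females and 5.85 ± 1.00 in Ecad females (n = 8 each, ± SD). They differed by -2.80, with p = 0.014 in an exact two-sided permutation test and 0.28 after adjustment over 20 tests, and so did not pass. In ΔEcad female 3 Angpt1 was the highest and Angpt2 the lowest of all tumours. Without it the difference was -1.79 (exact permutation adjusted p 0.51). In males the ratio differed by 0.52 (exact permutation p 0.559). Rgs5 over Cdh5, a ratio of pericyte to endothelial RNA, was 0.79 ± 1.29 in ΔEcad males and -0.13 ± 0.50 in Ecad males (SD, n = 8 each), with an exact permutation p of 0.0765 and an adjusted p of 0.51. The highest male values were those of ΔEcad male 1 (3.22), where Cdh5 was at 1.44 TPM, and ΔEcad male 2 (1.92). Leaving out single tumours gave differences of 0.57 to 1.13. None of the 20 differences passed, the others being of Prox1 over Cdh5, Plvap over Cdh5 and Flt1 over Kdr.

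A list of 45 other vascular genes, all tested, held 2 that were called in females, against 1.2% of all genes. None of the 45 was called in the other 5 comparisons, in each of which at most 0.0508% of all genes were called. The 2 called in females, Notch3 and Ndufa4l2, were both listed as pericyte genes, and both rose in ΔEcad females. None of the other listed pericyte genes was called. Of these, Pdgfrb, Higd1b, Cox4i2 and Vtn had a higher median in ΔEcad females, as did Pdgfb, which encodes a ligand rather than a pericyte marker but was on that list. The medians of Cspg4 and Mcam were lower there, at 76.3 and 223 TPM against 183 and 517 TPM in Ecad females. Notch3, a receptor that keeps mural cells in place, was at 0.77, 2.76 and 8.9 TPM (lowest, median and highest) in Ecad females and 3.37, 14.8 and 27.1 TPM in ΔEcad females, and 6 of 8 ΔEcad tumours lay above every Ecad tumour. Its log2 fold change was 1.96 (± 0.44 SE, adjusted p 0.0394 in edgeR). Ndufa4l2, a mitochondrial protein that pericytes express and hypoxia induces, was at 3.06, 12.02 and 47.6 TPM and 16.3, 100.3 and 567 TPM, also with 6 of 8 above every Ecad tumour, and changed by 3.22 (± 0.74 SE, adjusted p 0.0394 in edgeR). Both kept their calls without ΔEcad female 3 and with DESeq2. Neither was called by limma voom, with the covariates, with only the tumours compared, without ΔEcad female 1, 2 or 7, or without any 1 of the Ecad females except Ecad female 5. Over the 45 genes 12 were higher and 4 lower in ΔEcad females at an unadjusted p under 0.05, against 11.2% and 4.13% of all genes. In males 4 were higher and 1 lower at that p, against 7.19% and 3.05% of all genes. The smallest p in males were those of the tip cell proteoglycan Esm1 at 2.68 (± 0.90 SE, adjusted p 0.392 in edgeR) and the VEGF coreceptor Nrp2 at 2.35 (± 0.81 SE, adjusted p 0.404 in edgeR). Esm1 was at 1.54 (± 0.82 SE, adjusted p 0.498) without ΔEcad male 7.

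In the comparison of the sexes of Ecad tumours the pericyte gene Ndufa4l2, at -3.16 (± 0.73 SE, adjusted p 0.0869 in edgeR), and the venular chemokine receptor Ackr1, at -3.30 (± 0.99 SE, adjusted p 0.112 in edgeR), had the smallest p, and 8 of the 45 were lower and 1 higher in females at an unadjusted p under 0.05, against 10.3% and 5.71% of all genes. Between the sexes of ΔEcad tumours Pgf, a VEGF family ligand, was at -2.68 (± 0.92 SE, adjusted p 0.484 in edgeR) and Esm1 at -2.50 (± 0.90 SE, adjusted p 0.484 in edgeR), with 2 higher and 4 lower at that p, against 3.32% and 5.49% of all genes. Pgf was at -1.84 (± 0.87 SE, adjusted p 0.602) without ΔEcad male 6, and Esm1 at -1.37 (± 0.82 SE, adjusted p 0.576) without ΔEcad male 7. The interaction was 4.59 (± 1.00 SE, adjusted p 0.0509 in edgeR) for Ndufa4l2 and 2.53 (± 0.61 SE, adjusted p 0.0526 in edgeR) for Notch3, with 7 above and 4 below 0 at an unadjusted p under 0.05, against 10.7% and 6.94% of all genes. Averaged over the sexes, the lymphatic valve factor Foxc2 was at 2.40 (± 0.60 SE, adjusted p 0.195 in edgeR) and Svep1, an extracellular ligand of the Tie pathway, at 1.76 (± 0.46 SE, adjusted p 0.213 in edgeR), and 9 were higher and 2 lower at that p, against 7.25% and 2.63% of all genes. Foxc2 was highest in ΔEcad male 7 and ΔEcad female 3, and it was at 1.61 (± 0.50 SE, adjusted p 0.32) without the first and 1.62 (± 0.50 SE, adjusted p 0.305) without the second.

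Across the 32 tumours, most of the genes followed Cdh5. Of 34 relations on log2 CPM, 29 passed at an adjusted permutation p under 0.05. Of these, 28 were positive and that of Acta2 was negative. Without ΔEcad female 3, 24 of the 34 passed. The relation of all genes with Cdh5 was not tested. These counts therefore describe only the genes listed here and cannot tell them apart from genes in general. The highest r were those of Mmrn2, Kdr, Pecam1, Robo4 and Tie1, genes made largely by endothelium. For Mmrn2, Pearson's r with Cdh5 was 0.97 and Spearman's rho 0.87, and for Kdr they were 0.96 and 0.87. Pecam1 was at 0.96 and 0.91, Robo4 at 0.96 and 0.83, and Tie1 at 0.95 and 0.89. For these 5 the permutation p was 1e-05 for r and for rho, the smallest that the permutations can give, and 3.78e-05 and 3.09e-05 after adjustment over 34. The 2 tumours farthest from the median of Cdh5 were ΔEcad female 3 and ΔEcad male 1, at 0.02 and 1.44 TPM. Without them r was 0.85, 0.85, 0.89, 0.85 and 0.86 in the same order, so these relations did not rest on those tumours.

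The 5 lowest r with Cdh5 were those of Acta2, Angpt1, Apln, Pdpn and Eng. Acta2 had r = -0.41 (adjusted permutation p 0.0418) but rho = 0.37 (adjusted permutation p 0.0426), and without the 2 tumours r was 0.58 (adjusted permutation p 0.00116), so the negative sign rests on ΔEcad female 3. Angpt1 went from r = -0.13 to 0.38, Apln from -0.10 to 0.18, Pdpn from -0.07 to 0.35 and Eng from 0.28 to 0.32. With all 32 tumours the adjusted permutation p of r was 0.503, 0.643, 0.681 and 0.127 for these 4, and their rho was 0.30, 0.07, 0.28 and 0.37 (adjusted permutation p 0.103, 0.693, 0.128 and 0.0426). Angpt2 and Cd34 passed with all tumours, at r = 0.70 and 0.72, but not without the 2 tumours, at 0.24 and 0.26. The same held for Fli1 (from 0.41 to 0.25), Lyve1 (from 0.63 to 0.27) and Mmrn1 (from 0.52 to 0.24).

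**Figure D5:**
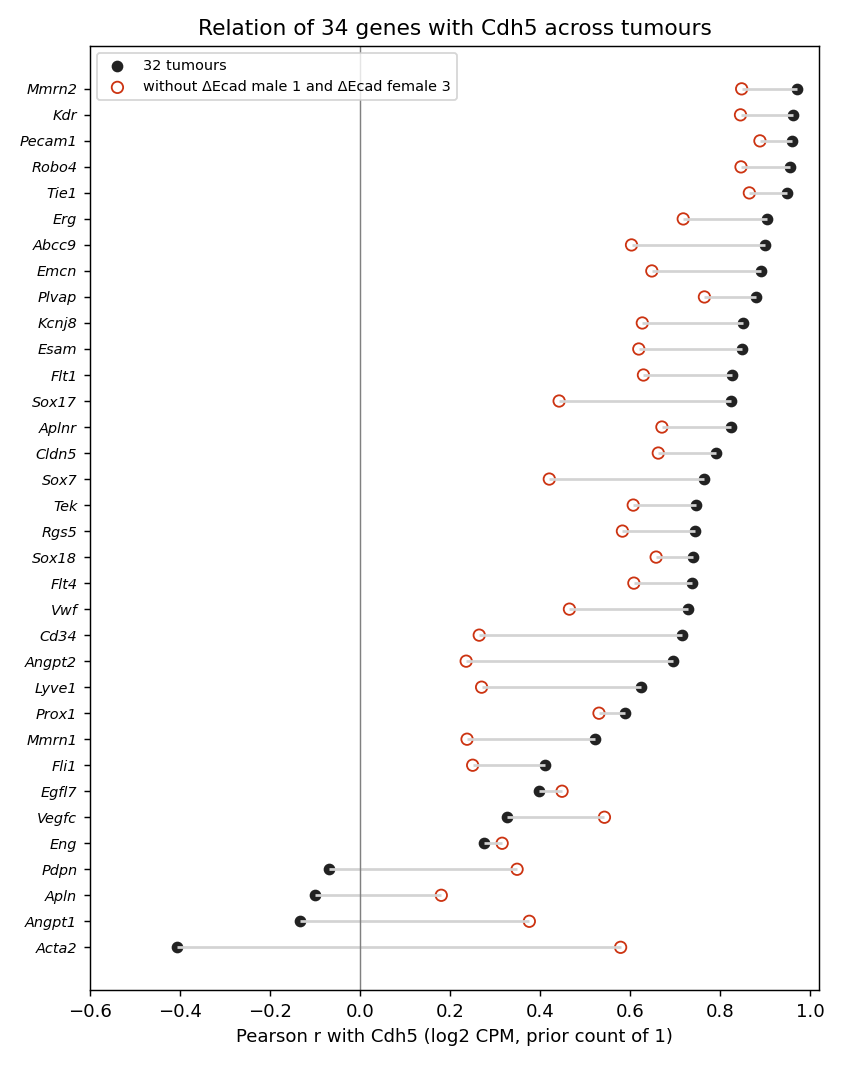
Pearson r of each of the other 34 genes with Cdh5 on log2 CPM, over 32 tumours (filled) and without ΔEcad male 1 and ΔEcad female 3 (open). Mmrn2, Kdr, Pecam1, Robo4 and Tie1 are at 0.85 or more in both, and Acta2 crosses from a negative to a positive value.

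The genes were also set against the mean log2 CPM of marker lists of 10 other cell types, in 350 relations adjusted together. The highest relation of a gene with a list was that of Pdpn with fibroblast markers, at r = 0.83 (rho = 0.83, adjusted permutation p 0.00175 and 0.0007) and 0.86 without its 2 farthest tumours. Tek had the highest relation with adipocyte markers, at r = 0.67 (rho = 0.77, adjusted permutation p 0.0021 and 0.0007) and 0.64 without its 2 farthest tumours, with smooth muscle markers, at r = 0.63 (rho = 0.67, adjusted permutation p 0.00525 and 0.0015) and 0.61 without its 2 farthest tumours, and with keratinocyte markers, at r = 0.60 (rho = 0.65, adjusted permutation p 0.00805 and 0.00445) and 0.54 without its 2 farthest tumours. The relations of Tek with these 3 lists moved little without the farthest tumours. Sox17 led for skeletal muscle markers, at r = 0.59 (rho = 0.65, adjusted permutation p 0.0021 and 0.00428) and 0.59 without its 2 farthest tumours, and Sox18 for platelet markers, at r = 0.59 (rho = 0.62, adjusted permutation p 0.00863 and 0.00467) and 0.56 without its 2 farthest tumours. Of the other leading relations, those of Robo4 and Eng were far lower without the farthest tumours. Robo4 with macrophage markers was at r = 0.75 (rho = 0.18, adjusted permutation p 0.0302 and 0.459) and 0.08 without its 2 farthest tumours, and Eng with melanocytic markers at r = 0.58 (rho = 0.43, adjusted permutation p 0.0201 and 0.0647) and 0.22 without its 2 farthest tumours. Lyve1 with T cell markers was at r = 0.58 (rho = 0.53, adjusted permutation p 0.00914 and 0.0233) and 0.43 without its 2 farthest tumours, and Mmrn1 with Schwann markers at r = 0.48 (rho = 0.47, adjusted permutation p 0.0285 and 0.0359) and 0.39 without its 2 farthest tumours. A list exceeded Cdh5 in r for 10 of the 34 genes over 32 tumours (Acta2, Angpt1, Apln, Cd34, Eng, Fli1, Lyve1, Mmrn1, Pdpn and Vegfc), and for 21 without ΔEcad female 3.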

How the data were processed

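Poly(A) RNA of 32 primary melanomas was sequenced by the authors in paired reads of 100 bases with a stranded kit. Per the labels and the study's methods, reads were checked with FastQC 0.11.5 and mapped with STAR to mm10. The STAR version, the strand setting and whether batch correction touched these files are not given in the sources used here. The authors deposited a table of raw read counts per gene, whole numbers with no normalization, and a table of TPM per gene, their own scaling for length and library total. Counts were used for tests and TPM for levels. Symbols came from the reference gene names, and gene positions from a GENCODE annotation of GRCm38.

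The 35 genes, the other lists and the tests were chosen with earlier results of these data known. Genes were filtered with filterByExpr, scaled by TMM and fitted in edgeR 4.0.16 (limma 3.58.1, R 4.3.3) with robust quasi-likelihood tests over all 32 tumours and 1 coefficient for each of the 4 groups. The common dispersion was 0.624. DESeq2 1.42.0, limma voom with quality weights, other scalings, no filter, covariates, a block and leaving out each tumour were alternatives, and leaving out 3 libraries together was chosen after seeing the data. In counts simulated for the female comparison on 17717 genes with 200 changed, 87% of those changed by a log2 of 4 and 54% of those changed by 2 were recovered, and 4 unchanged genes were called. Relations used 100000 permutations (numpy 2.4.6, scipy 1.17.1), 20000 for alternatives, and ratios all 12870 splits. Fold changes are named for every gene called, for the 6 smallest p and Cdh5, Prox1 and Rgs5 in each genotype comparison, and for the 3 smallest p elsewhere. For the other vascular genes they are named where called and for the 2 smallest p. With Cdh5 the 5 highest and 5 lowest r are named, and with each marker list the highest. Depth of 24036333 to 63923086 counts per library limits genes at a few counts, and a floor of 3 counts stands for 0.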

Additional observations from a re-analysis of the deposited data

Results flagged for a closer look

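In each group of 8 tumours, the highest and the lowest log2 CPM (prior count of 1) of each of the 35 genes was tested for its gap to the nearest of the others with Dixon's criterion. It was passed in 32 of 140 gene and group pairs, against about 1 in 20 by chance. The pairs share tumours and many of the genes vary together, so they are not independent of each other. Of the 32, 24 were the tumour ΔEcad female 3. It was far below the other ΔEcad females in 23 genes. Among junction and surface genes these were Pecam1 at -1.75, Cdh5 at -4.38, Esam at -3.18, Cldn5 at -5.19, Cd34 at -1.11, Emcn at -5.19, Plvap at 0.41, Robo4 at -5.19 and Mmrn2 at -4.38. Among receptors and ligands they were Kdr at -4.38, Flt4 at -2.09, Tek at -1.18, Tie1 at -4.38, Angpt2 at -1.11 and Aplnr at -3.86. Among transcription factors they were Erg at -3.86, Sox7 at -4.38, Sox17 at -5.19 and Sox18 at -1.11, and among lymphatic and mural genes Prox1 at -2.72, Rgs5 at 1.60, Kcnj8 at -3.18 and Abcc9 at -3.48. The value of Cldn5, Emcn, Robo4 and Sox17 is that of 0 counts. In Acta2 the same tumour was far above the others, at 11.03. Its summed markers of red blood cells and of macrophages were the lowest of the 32 tumours as well, and their part in this was not tested.

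The other 8 were spread over several tumours. ΔEcad male 1 was low in Cdh5 (2.14, or 1.44 TPM against a median of 44.05 TPM in the other 7 tumours), in Flt1 (2.53, or 0.59 TPM against a median of 8.21 TPM in the other 7 tumours) and in Abcc9 (-0.91, or 0.08 TPM against a median of 4.57 TPM in the other 7 tumours). Esam in Ecad male 8 was high, at 8.13, or 238 TPM against a median of 26.2 TPM in the other 7 tumours, and Emcn in ΔEcad male 2 was high, at 5.86, or 22.04 TPM against a median of 4.9 TPM in the other 7 tumours. Cldn5 was low in Ecad male 7, at 2.25, or 9.58 TPM against a median of 36.9 TPM in the other 7 tumours. Prox1 was low in Ecad female 6, at -3.58, or 0.02 TPM against a median of 0.54 TPM in the other 7 tumours, and Pdpn in ΔEcad female 4, at 1.22, or 3.16 TPM against a median of 48.6 TPM in the other 7 tumours.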

How the results depend on the processing

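The number of the 35 genes called in females was the least stable result. It was 1 over all tumours, 3 with DESeq2 (Angpt1, Sox7 and Tek), 2 at an adjusted p under 0.1, 2 without the 3 libraries that stand apart, and 0 with limma voom, with the covariates and with only the tumours compared. Leaving out each tumour in turn gave 0 to 2, and the call of Acta2 was lost without ΔEcad females 1, 2, 3 or 7, any Ecad female but number 5, Ecad males 1, 2, 4, 5, 6 or 8, or ΔEcad males 1, 2 or 5. DESeq2 called 1 gene in the comparison of the sexes of Ecad tumours (Esam) and 1 in the interaction (Sox7), beside 91 higher and 932 lower of 17717 genes and 1096 higher and 129 lower of 17717 genes. In the interaction, leaving out each tumour gave 0 to 1. The counts of 0 in the other comparisons held under every alternative run. Of all genes, 205 were higher and 8 lower in females, against 1182 higher and 99 lower with DESeq2, 1 higher and 0 lower with limma voom, 1 higher and 6 lower with the covariates and 471 higher and 12 lower without ΔEcad female 3.

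Genes higher in females at an unadjusted p under 0.05 numbered 6, but 2 with the covariates, 13 without ΔEcad female 3 and 15 without the 3 libraries. Genes lower in Ecad females than in Ecad males numbered 3, but 7 with only the tumours compared, 1 with the covariates, 7 without the 3 libraries and 1 to 6 without single tumours. Of the named log2 fold changes, 3 in males changed sign, Cd34 (-0.046 without the 3 libraries), Esam (0.18 without Ecad male 8, and -1.16 to 0.18 over single tumours left out) and Flt4 (-0.054 without ΔEcad male 8, and -0.054 to 1.22 over single tumours). The relations of Acta2, Angpt1, Apln and Pdpn with Cdh5 turned positive without ΔEcad female 3 (0.57, 0.53, 0.18 and 0.27) and without the 2 farthest tumours (0.58, 0.38, 0.18 and 0.35), and on log2(TPM + 1) those of Apln and Pdpn were 0.013 and 0.10. Relations with marker scores that passed numbered 92, but 19 without the 2 farthest tumours.

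Replicate numbers are shared between the groups. Deviations of samples with the same number had a mean correlation of -0.13 to 0.14 over the 6 pairs of groups, with a lowest value of -0.47, and at most 2 of 8 correlated best with their own number, so the numbers were not taken to pair the tumours. With the replicate block 0 of the 35 genes were called in females and 1 higher and 0 lower of all genes. The spread between tumours and the few counts of scarce genes such as Angpt1 and Prox1 limit all values.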

Other observations

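Single tumours held extremes of different compartments. ΔEcad male 8 had the highest level of 8 of the 35 genes, among them 3 of the 4 lymphatic genes, Prox1 (4.47 TPM), Lyve1 (125 TPM) and Mmrn1 (39.8 TPM) with the lymphatic receptor and ligand genes Flt4 (77.3 TPM) and Vegfc (72.8 TPM). The rest of its 8 were the endothelial genes Cldn5 (172 TPM), Eng (577 TPM) and Sox18 (86.1 TPM). Its Cdh5, at 52.03 TPM, was within the range of the other tumours. ΔEcad male 7, whose melanocytic markers summed to 31.3 TPM, had the highest Pdpn (332 TPM) and Cd34 (214 TPM) but the lowest Eng (20.3 TPM) and Vegfc (6.72 TPM). Ecad male 8 had the highest Esam, Egfl7 (148 TPM) and Aplnr (29.2 TPM). ΔEcad female 1 had the highest Cdh5 (77.2 TPM), Pecam1 (76.1 TPM) and Plvap (337 TPM).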
